A study of Homo sapiens with 12 samples.

Results

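SWI/SNF complexes move nucleosomes along DNA with the energy of ATP, and the proteins of the ARID family bind DNA through a shared AT-rich interaction domain, with some of them sitting inside SWI/SNF and others outside it. The members described here are the Affymetrix probe sets whose annotated gene symbol starts with SMARC or ARID, together with those of ACTL6A, ACTL6B, PBRM1, DPF1, DPF2, DPF3, BRD7, BRD9, PHF10, SS18, SS18L1, BCL7A, BCL7B and BCL7C. They came to 104 of 54613 probe sets and to 35 of 19775 genes, and the rule uses the symbols alone. Antisense and divergent transcripts were not taken, and 3 probe sets whose annotation joins ARID4B or SS18 to another gene were left out. ARID3C and ARID4A had no probe set under this rule and were not analysed here.

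The cells were HD-MB03, a human medulloblastoma line in which MYC is amplified. They were given 1 µM entinostat, which inhibits class I histone deacetylases, or the solvent DMSO alone (these cultures are also labelled as untreated), for 24 h or 48 h. Each of the 4 groups had 3 biological replicates, and the 12 RNA samples were hybridized to 1 Human Genome U133 Plus 2.0 array each. All values come from 1 line and 1 dose. The deposited values are linear intensities, normalized between arrays by the authors, and a log2 fold change below is the mean log2 intensity with entinostat minus that with DMSO at the same time. Array medians were 80.7 to 81.9 and the lowest value was 36.7, so that a background level is part of every value and fold changes of dim probe sets are understated. An adjusted p is from limma with Benjamini-Hochberg adjustment over all 54613 probe sets, and a value passed the test when it was under 0.05.

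As background, a mammalian SWI/SNF complex is built around SMARCA4 or SMARCA2, mutually exclusive ATPases, and a core of scaffold subunits. Canonical BAF carries ARID1A or ARID1B and a DPF protein, PBAF carries ARID2, PBRM1, BRD7 and PHF10, and non-canonical BAF carries BRD9 and lacks SMARCB1. When neural progenitors leave the cell cycle, ACTL6A, PHF10 and SS18 are known to give way to ACTL6B, DPF1 or DPF3, and SS18L1. ARID4A and ARID4B belong to Sin3 complexes, which contain the class I deacetylases that entinostat inhibits. SMARCA4 and other subunits are mutated in a share of medulloblastomas, and loss of SMARCB1 defines rhabdoid tumours of the brain.

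More of the SWI/SNF genes were lower with entinostat than higher. With each gene read from its probe set of the highest mean intensity over all arrays, 17 of the 35 genes were lower and 4 higher after 24 h, against 33.2% of all genes called in either direction (15% lower and 18.2% higher). At 48 h 19 were lower and 3 higher, against 34% of all genes (16.6% lower and 17.3% higher). Of the 26 genes that are SWI/SNF subunits, 15 were lower and 1 higher after 24 h, and 16 were lower and 1 higher after 48 h. Their median log2 fold change was -0.35 after 24 h and -0.36 after 48 h, where the median over all genes was -0.02 at both times. Nearly all members lie in the brighter range of the array, where more genes pass. Among genes with a mean log2 intensity of at least 6.5, 17 of 32 members were lower after 24 h, against 23.5% of all such genes, and 19 of 32 after 48 h, against 26.5%. In RNA from whole cultures, fewer cells of one kind and less RNA per cell cannot be told apart.

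The same genes made up most of both counts. Lower at both times were 15 of the 35 genes (42.9%, against 11.1% of all genes). They were SMARCA2, SMARCA4, SMARCB1, SMARCC1, SMARCD2, SMARCD3, SMARCE1, BCL7A, ARID1B, ARID2, PBRM1, PHF10, BRD9, SMARCA1 and SMARCAD1. Higher at both times were ARID3B and ARID5B (5.71% of the 35, against 13.7% of all genes), and none of the 35 passed in opposite directions. ARID1A, SMARCC2, ARID3A and DPF1 passed after 24 h alone, and BCL7B, BCL7C, SS18L1, SMARCAL1 and ACTL6B after 48 h alone. The remaining 9 genes, ACTL6A, SMARCD1, SS18, DPF2, DPF3, BRD7, SMARCA5, ARID4B and ARID5A, passed at neither time. The arrays of both groups did not overlap for 26 of the 35 genes after 24 h and for 24 after 48 h, against 46.5% and 45.2% of all genes.

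**Figure D1:**
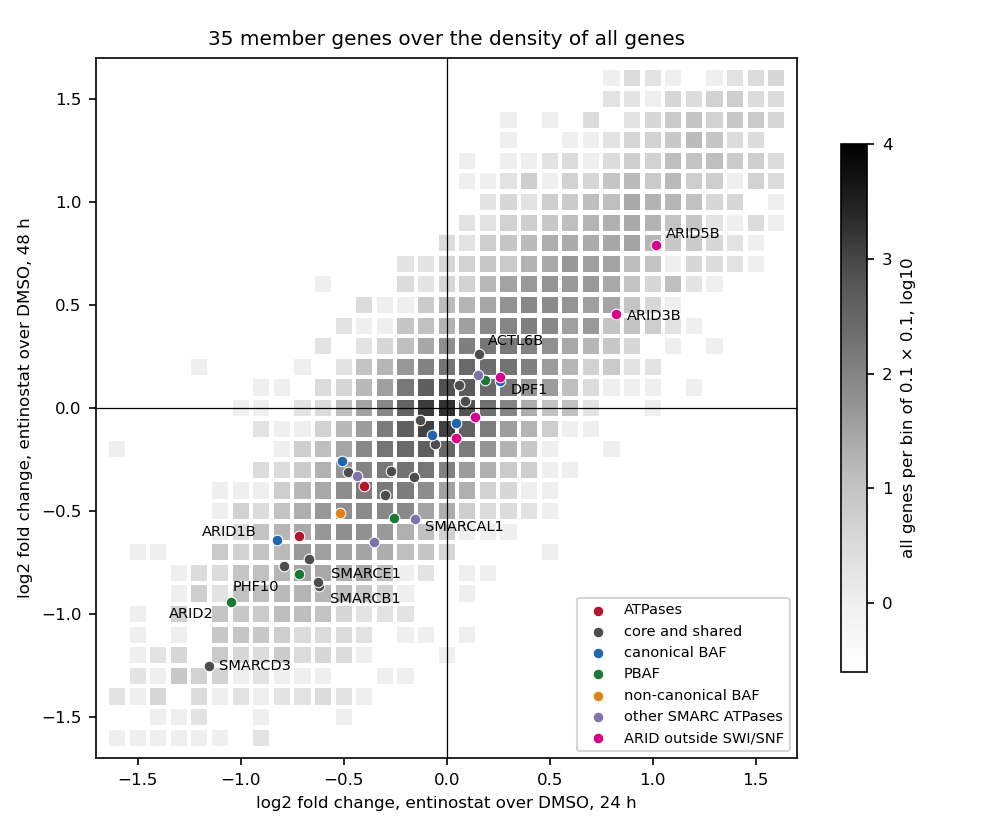
Log2 fold change of the 35 member genes after 24 h (x axis) and after 48 h (y axis), coloured by their place in the complexes, over grey squares that give the number of all genes per bin on a log10 scale. Genes beyond ±1.7 at either time lie outside the axes. The SWI/SNF subunits spread from the centre to the lower left, as far as SMARCD3 at -1.16 and -1.25, while ARID3B and ARID5B lie in the upper right.

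The test of whether the effect changed between the times gave no call among the members. None of the 104 probe sets passed the interaction of treatment and time in limma, against 1.21% of all probe sets, and 12 had an unadjusted p under 0.05. The lowest adjusted p was 0.073, for SMARCA1. A gene that passed at 1 time alone was therefore not shown to differ between the times. Time in culture alone gave no call either. Between DMSO after 48 h and DMSO after 24 h, 0 of 104 probe sets differed in limma, against 0.359% of all probe sets. Of the member probe sets, 14 had an unadjusted p under 0.05, and the lowest adjusted p was 0.12. With both times in 1 additive model, 52 of the 104 probe sets were lower and 12 higher, against 32.7% of all probe sets (17% lower and 15.7% higher).

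RefSeq windows of the 250 bases before a transcription start (GRCh38.p14) were at hand for 29 of the 35 genes, 49 windows in all. They were searched on both strands for the E-box CACGTG, which MYC and its partner MAX bind, for the GC box GGGCGG of SP1-type factors and for CCAAT. The E-box was in 2 of the 49 member windows (4.08%) and in 6.34% of 35116 windows of all genes. The GC box was in 57.1% of the member windows and in 42.6% of all, and CCAAT in 28.6% and 32%. Median GC content was 67.2% in the member windows and 58% in all. A match here is a description of the letters and not a bound site. Shown are SMARCE1 and PHF10, subunits that fell at both times, and both windows of ARID5B, which had the largest rise. Capitals mark matches to the GC box or CCAAT on either strand.
SMARCE1 chr17:40647819-40648068 (minus strand): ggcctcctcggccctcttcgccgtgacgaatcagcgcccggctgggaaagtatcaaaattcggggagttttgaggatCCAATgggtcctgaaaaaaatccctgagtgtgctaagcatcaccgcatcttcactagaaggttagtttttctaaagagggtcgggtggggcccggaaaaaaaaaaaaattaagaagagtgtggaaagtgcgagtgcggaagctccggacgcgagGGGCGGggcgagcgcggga
PHF10 chr6:169724501-169724750 (minus strand): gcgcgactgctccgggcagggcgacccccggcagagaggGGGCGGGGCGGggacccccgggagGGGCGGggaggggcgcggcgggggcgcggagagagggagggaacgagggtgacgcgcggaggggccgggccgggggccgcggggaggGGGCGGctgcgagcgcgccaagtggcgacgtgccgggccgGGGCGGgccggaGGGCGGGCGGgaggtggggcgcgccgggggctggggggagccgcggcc
ARID5B chr10:61901449-61901698 (plus strand): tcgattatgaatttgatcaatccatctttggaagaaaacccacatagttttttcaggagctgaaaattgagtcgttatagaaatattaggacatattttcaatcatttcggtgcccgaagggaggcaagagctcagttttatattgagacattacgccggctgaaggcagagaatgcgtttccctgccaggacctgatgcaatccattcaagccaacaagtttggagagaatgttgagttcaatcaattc
ARID5B chr10:62049107-62049356 (plus strand): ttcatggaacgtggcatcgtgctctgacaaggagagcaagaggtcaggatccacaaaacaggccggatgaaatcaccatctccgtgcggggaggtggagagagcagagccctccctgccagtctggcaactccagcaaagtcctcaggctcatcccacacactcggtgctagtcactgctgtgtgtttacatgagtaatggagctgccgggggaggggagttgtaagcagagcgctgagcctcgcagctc
The PHF10 window is rich in G and C (86.4%) and holds 7 GC boxes, some of which overlap. The SMARCE1 window holds 1 GC box and 1 CCAAT at 54.4% GC, and neither ARID5B window (40.4% and 57.6% GC) holds any of the motifs.

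Both catalytic ATPases were lower. SMARCA2 intensity was 496, 636 and 535 on the 3 DMSO arrays and 364, 314 and 333 on the 3 entinostat arrays at 24 h, and 417, 502 and 540.2 against 266, 387 and 301 at 48 h. Every entinostat array lay below every DMSO array of its time, and the log2 fold change was -0.72 after 24 h (SE 0.14, adjusted p = 0.00183) and -0.62 after 48 h (adjusted p = 0.00453). All 7 SMARCA2 probe sets had negative values at both times, with 5 past the test after 24 h and 4 after 48 h. At 24 h the DMSO arrays gave SMARCA4 intensities of 1481, 1994 and 1494 and the entinostat arrays 1213, 1313 and 1196, and at 48 h these were 1634, 1725 and 1672 and 1247, 1254 and 1365. The second DMSO array after 24 h stood above the others, but the groups did not overlap at either time. SMARCA4 had log2 fold changes of -0.40 (SE 0.10, adjusted p = 0.00847) and -0.38 (adjusted p = 0.0114), and -0.26 after 24 h without that array (adjusted p = 0.0111). Its 9 probe sets, the most of any member, were negative at both times, with values from -0.57 to -0.07 after 24 h. Of these, 4 passed the test after 24 h, but only the 1 described here passed after 48 h. Probe sets whose names end in _s_at or _x_at can match several transcripts, and the only SMARCA4 probe set without such an ending had -0.19 and -0.09 and did not pass.

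Among the core subunits the SMARCD proteins, which take alternative places in the complex, showed unequal changes. SMARCD3 (BAF60C), known from heart, muscle and neural development, had the largest fall of any member. For SMARCD3, the arrays read 484, 508 and 463 in DMSO and 200.0, 226 and 228 with entinostat at 24 h, and 466, 444 and 408 in DMSO and 174, 191 and 189 with entinostat at 48 h. The entinostat arrays were at less than 0.5 times the DMSO mean at both times. The log2 fold change was -1.16 after 24 h (SE 0.07, adjusted p = 2.02e-07) and -1.25 after 48 h (adjusted p = 9.25e-08). The fall rested on 1 of 2 SMARCD3 probe sets, and the other one had -0.20 and -0.11 (adjusted p = 0.0953 and 0.423). With DMSO, SMARCD2 had intensities of 790.2, 792 and 827 at 24 h and 815, 784 and 837 at 48 h, and with entinostat 482, 494 and 544 and 497, 444 and 529. SMARCD2 (BAF60B) fell without overlap between the groups, with log2 fold changes of -0.67 and -0.73 (SE 0.07, adjusted p = 1.55e-05 and 6.06e-06). SMARCD1 (BAF60A) had -0.13 after 24 h (adjusted p = 0.0761) and -0.06 after 48 h (adjusted p = 0.462). Its 24 h value passed among probe sets with a mean log2 of at least 6.5 (adjusted p = 0.0485).

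SMARCE1 (BAF57), a subunit with an HMG DNA-binding domain, was measured by 4 probe sets. SMARCE1 intensity was 2191, 2168 and 2182 on the 3 DMSO arrays and 1419, 1411 and 1416 on the 3 entinostat arrays at 24 h, and 2182, 2207 and 2295 against 1112, 1351 and 1273 at 48 h. The DMSO arrays lay close together and well above the entinostat arrays. The log2 fold change was -0.62 after 24 h and -0.84 after 48 h (SE 0.06, adjusted p = 1.38e-05 and 9.77e-07), and further probe sets of the gene gave -1.11 and -1.15, and -0.57 and -0.54. The remaining one had -0.11 after 24 h (adjusted p = 0.441) and was lower after 48 h (-0.47, adjusted p = 0.00176). At 24 h the DMSO arrays gave SMARCB1 intensities of 229, 224 and 277 and the entinostat arrays 157, 155 and 161, and at 48 h these were 212, 271 and 252 and 129, 130.1 and 143. SMARCB1 (SNF5) was lower on this probe set, with log2 fold changes of -0.62 and -0.87 (SE 0.10, adjusted p = 0.000379 and 2.27e-05). Its other probe sets, which are dimmer, had 0.08 and 0.07 after 24 h and -0.11 and 0.02 after 48 h, and neither passed. SMARCB1 therefore rested on a single probe set with the ending _s_at.

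The scaffold subunit SMARCC1 (BAF155) was lower, with a log2 fold change of -0.30 after 24 h (SE 0.06, adjusted p = 0.00184) and -0.42 after 48 h (adjusted p = 0.00013). Its paralogue SMARCC2 (BAF170) had -0.48 after 24 h (adjusted p = 0.0232) and -0.31 after 48 h (adjusted p = 0.133), and the first of these did not pass in 3 of 12 fits to 11 arrays, namely without the second DMSO array (-0.38) and without the first or the third entinostat array of 24 h (-0.44 and -0.47). The 48 h value of SMARCC2 passed without the first DMSO array of that time (-0.46, adjusted p = 0.0213). BCL7A, one of 3 related small subunits, fell at both times. For BCL7A, the arrays read 248, 221 and 290.3 in DMSO and 136, 144 and 158 with entinostat at 24 h, and 234, 309.8 and 276 in DMSO and 175, 147 and 157 with entinostat at 48 h. The groups did not overlap, and the log2 fold change was -0.79 and -0.77 (SE 0.12, adjusted p = 0.000263 and 0.000293). BCL7B had -0.27 after 24 h (adjusted p = 0.0813), which passed when each time was fitted alone (adjusted p = 0.0201) and in 2 of 12 fits to 11 arrays (adjusted p = 0.00815 and 0.0427, without the first or the second DMSO array of 48 h). It passed narrowly after 48 h (-0.30, adjusted p = 0.0476), and 11 of the 12 fits to 11 arrays lost it, with the value without the second DMSO array of 48 h at -0.20. BCL7C also passed after 48 h alone (-0.18, adjusted p = 0.0307), which 4 of the 12 such fits did not give.

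**Figure D2:**
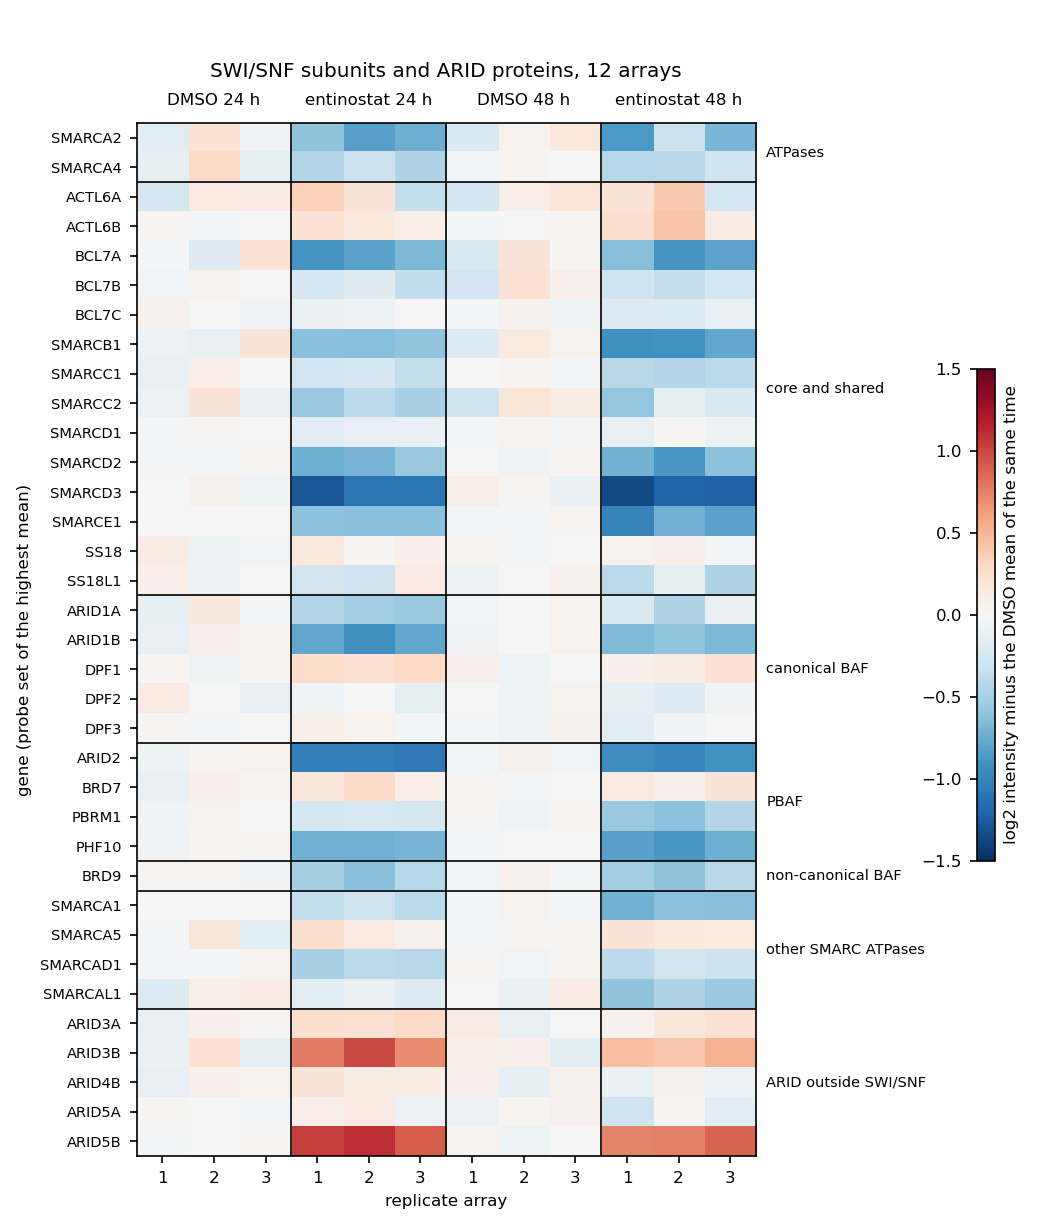
Log2 intensity of the 35 member genes in each of the 12 arrays, minus the DMSO mean of the same time, with red for higher and blue for lower. Rows are genes, each read from its probe set of the highest mean and grouped by complex, and columns are the replicate arrays of the 4 groups. Blue runs through the entinostat columns of most SWI/SNF subunits, deepest for SMARCD3 and ARID2, and red through those of ARID3B and ARID5B.

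The subunits that differ between neural progenitors and neurons gave unlike results. PHF10 (BAF45A), the progenitor subunit of PBAF, fell. With DMSO, PHF10 had intensities of 1015, 1069 and 1064 at 24 h and 1087, 1111 and 1109 at 48 h, and with entinostat 638, 634 and 644 and 627, 603 and 662. The log2 fold change was -0.72 after 24 h and -0.81 after 48 h (SE 0.05, adjusted p = 4.92e-07 and 1.6e-07), with no overlap between groups, and its other probe set gave -0.61 and -0.88. DPF1 intensity was 110.5, 104 and 110.5 on the 3 DMSO arrays and 130.0, 126 and 133 on the 3 entinostat arrays at 24 h, and 111, 101 and 105 against 111, 113 and 122 at 48 h. DPF1 (BAF45B), the neuronal counterpart, rose after 24 h by 0.26 (SE 0.06, adjusted p = 0.0049) and had 0.13 after 48 h (adjusted p = 0.127). A second DPF1 probe set passed at both times, with 0.55 and 0.34 (adjusted p = 0.00282 and 0.0448).

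At 24 h the DMSO arrays gave ACTL6A intensities of 702, 929 and 922 and the entinostat arrays 1068, 963 and 659, and at 48 h these were 686, 888 and 945 and 952, 1089.8 and 700.2. The replicates of ACTL6A (BAF53A) spread widely in every group, the groups overlapped, and the log2 fold change was 0.06 and 0.11 (SE 0.20, adjusted p = 0.884 and 0.769). For ACTL6B, the arrays read 63.4, 61.4 and 62.9 in DMSO and 72.7, 69.9 and 66.9 with entinostat at 24 h, and 62.1, 63.1 and 64.3 in DMSO and 75.1, 85.1 and 68.2 with entinostat at 48 h. Its neuronal counterpart ACTL6B (BAF53B) was dim, and its groups did not overlap at either time on this probe set. The log2 fold change of ACTL6B was 0.16 after 24 h (adjusted p = 0.14) and 0.26 after 48 h (SE 0.07, adjusted p = 0.0145). The 48 h value was 0.18 without the second entinostat array of 48 h (adjusted p = 0.052). It also missed when each time was fitted alone (adjusted p = 0.0527). The rise rested on 1 of 2 ACTL6B probe sets. The other, also dim, had 0.15 and 0.06 (adjusted p = 0.238 and 0.693), and its groups overlapped at both times.

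With DMSO, SS18 had intensities of 732, 642 and 656 at 24 h and 683, 665 and 677 at 48 h, and with entinostat 755, 686 and 714 and 697, 712 and 665. SS18, the progenitor form, had 0.09 and 0.03 (SE 0.06, adjusted p = 0.364 and 0.769), and its groups overlapped at both times. SS18L1 intensity was 476, 426 and 453 on the 3 DMSO arrays and 372, 363 and 491 on the 3 entinostat arrays at 24 h, and 461, 488 and 508 against 367, 439.7 and 351 at 48 h. The neuronal form SS18L1 (CREST) had -0.16 after 24 h (adjusted p = 0.381) and -0.34 after 48 h (SE 0.11, adjusted p = 0.0443), a call that 8 of the 12 fits to 11 arrays lost. Without the third entinostat array of 24 h, which read 491, SS18L1 passed after 24 h (-0.30, adjusted p = 0.0392). DPF2, the widely expressed DPF protein, had -0.07 and -0.13, and DPF3 0.04 and -0.07, with no pass for either. A pair of dim DPF3 probe sets passed after 24 h, with 0.23 and 0.26.

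The ARID subunits of BAF were lower, ARID1B more than ARID1A. At 24 h the DMSO arrays gave ARID1A intensities of 803, 994 and 870.3 and the entinostat arrays 653, 615 and 599.7, and at 48 h these were 858, 876 and 911 and 759.7, 644 and 819. ARID1A fell after 24 h, with a log2 fold change of -0.51 (SE 0.09, adjusted p = 0.00117) and had -0.26 after 48 h (adjusted p = 0.0593), although its arrays did not overlap after 48 h. The 48 h value ranged from -0.33 to -0.16 when 1 array was left out. It passed in 3 of these 12 fits, without the first (adjusted p = 0.0487) or second (adjusted p = 0.0377) DMSO array of 24 h or the third entinostat array of 48 h (-0.33, adjusted p = 0.0242), and it passed among probe sets with a mean log2 of at least 6.5 (adjusted p = 0.0387). The other ARID1A probe sets had -0.08, 0.01 and 0.10 after 48 h and did not pass. For ARID1B, the arrays read 577, 663 and 648 in DMSO and 367, 333 and 365 with entinostat at 24 h, and 678, 702 and 728 in DMSO and 443, 466 and 441 with entinostat at 48 h. ARID1B fell at both times, with -0.82 and -0.64 (SE 0.06, adjusted p = 1.42e-06 and 9.84e-06). Another of its 7 probe sets had -0.79 after 24 h and -0.80 after 48 h. One ARID1B probe set went the other way after 48 h, with 0.34 (adjusted p = 0.0466). ARID1B was the only member with probe sets that passed in opposite directions.

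Of the PBAF subunits, ARID2, PBRM1 and PHF10 fell at both times. With DMSO, ARID2 had intensities of 475, 512 and 520.0 at 24 h and 541, 579 and 538 at 48 h, and with entinostat 247, 245 and 238 and 289, 279 and 295. ARID2, the ARID subunit that PBAF has in place of ARID1A or ARID1B, was at about 0.5 times the DMSO level, with log2 fold changes of -1.05 and -0.94 (SE 0.05, adjusted p = 5.22e-08 and 9.62e-08). All 4 ARID2 probe sets were lower at both times, from -1.05 to -0.40 after 24 h and from -0.94 to -0.27 after 48 h. PBRM1 intensity was 447, 484 and 465 on the 3 DMSO arrays and 387, 393 and 387 on the 3 entinostat arrays at 24 h, and 508, 483 and 518 against 342, 329 and 372 at 48 h. PBRM1 (BAF180), the PBAF subunit with several bromodomains, fell, with a log2 fold change of -0.26 after 24 h and -0.53 after 48 h (SE 0.06, adjusted p = 0.00462 and 1.58e-05), with no overlap. Of its 6 probe sets, 2 passed after 24 h and 3 after 48 h, all lower and all with the ending _s_at, and the remaining ones had values from -0.09 to 0.04. BRD7, the bromodomain subunit of PBAF, had 0.19 and 0.14 (adjusted p = 0.0545 and 0.162), and its arrays did not overlap at either time. With both times in 1 model BRD7 was higher (0.16, adjusted p = 0.0135), as was another of its 4 probe sets (0.18, adjusted p = 0.0484). The 24 h value passed among probe sets with a mean log2 of at least 6.5 (adjusted p = 0.0353) and without the third entinostat array of 24 h (0.23, adjusted p = 0.0386).

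At 24 h the DMSO arrays gave BRD9 intensities of 489, 479.6 and 456 and the entinostat arrays 337, 306 and 353, and at 48 h these were 408, 439 and 416 and 296, 277 and 315. BRD9, which defines non-canonical BAF, was lower, with log2 fold changes of -0.52 and -0.51 (SE 0.07, adjusted p = 8.66e-05 and 8.69e-05), and its groups did not overlap. BICRA and BICRAL, which belong to the same complex and were read as related genes outside the member rule, had 0.29 and 0.11, and 0.24 and -0.03, and neither passed.

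**Figure D3:**
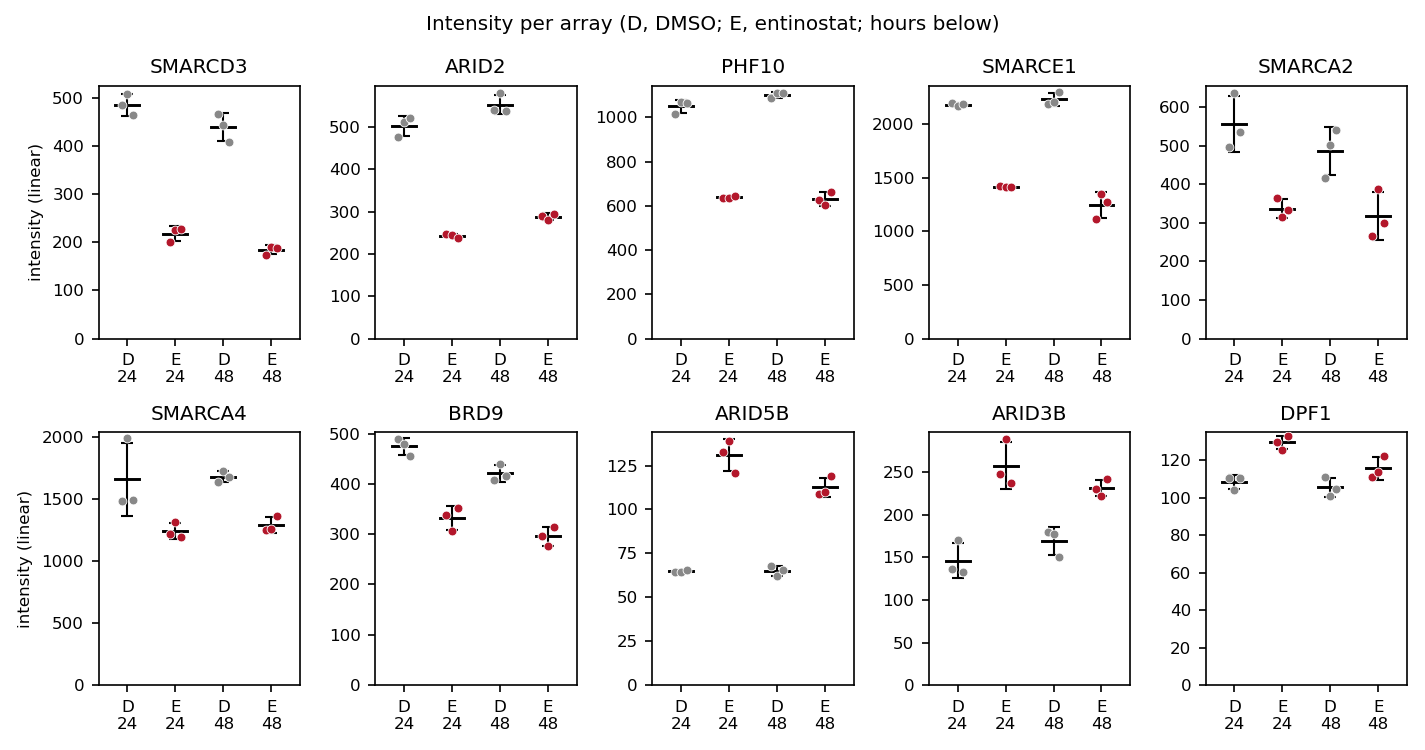
Linear intensity of 10 member genes on each array, with points for the 3 replicates, horizontal lines for the mean and error bars for the SD. Grey is DMSO (D) and red is entinostat (E), at the hours given below, and every y axis starts at 0. The red points lie below the grey points of the same time for SMARCD3, ARID2, PHF10, SMARCE1, SMARCA2, SMARCA4 and BRD9, and above them for ARID5B and ARID3B.

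Some genes named SMARC encode ATPases outside SWI/SNF. SMARCA1 (SNF2L) and SMARCA5 (SNF2H) drive the ISWI complexes, which space nucleosomes. For SMARCA1, the arrays read 912, 907 and 903 in DMSO and 709, 733 and 688 with entinostat at 24 h, and 944, 1001 and 952 in DMSO and 589, 632 and 626 with entinostat at 48 h. SMARCA1 fell, with a log2 fold change of -0.35 after 24 h and -0.65 after 48 h (SE 0.05, adjusted p = 0.000176 and 1.05e-06), and its 4 probe sets were all lower at both times. SMARCA5 had 0.15 and 0.16 (adjusted p = 0.188 and 0.153), and was higher with both times in 1 model (0.16, adjusted p = 0.0335). Without the second DMSO array of 24 h it passed after 24 h (0.24, adjusted p = 0.0217), and another of its probe sets passed after 48 h with 0.37. SMARCAD1, a remodeller of heterochromatin that also acts in DNA end resection, was lower, with -0.43 and -0.33 (adjusted p = 4.58e-05 and 0.000371). SMARCAL1, which anneals DNA strands at stalled replication forks, had -0.15 after 24 h (adjusted p = 0.246) and was lower after 48 h with -0.54 (adjusted p = 0.000461). Without the first DMSO array of 24 h, SMARCAL1 passed after 24 h too (-0.26, adjusted p = 0.0283).

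Of the 5 ARID genes outside SWI/SNF, each read from its brightest probe set, 3 were higher after 24 h and 2 after 48 h, too few genes to set against the shares of all genes. ARID5B, which works with the histone demethylase PHF2, had the largest rise of any member. With DMSO, ARID5B had intensities of 64.1, 64.6 and 65.3 at 24 h and 67.5, 62.0 and 65.5 at 48 h, and with entinostat 133, 139 and 121 and 109, 109.9 and 119. The DMSO arrays lay within a narrow range in the lower part of the scale, and the entinostat arrays lay well above them. The log2 fold change of ARID5B was 1.01 after 24 h and 0.79 after 48 h (SE 0.06, adjusted p = 1.83e-07 and 1.12e-06), and with 30 subtracted from every intensity it was 1.54 and 1.24. The rise rested on 1 of 5 ARID5B probe sets, and the other ones had values between -0.05 and 0.04 at both times.

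ARID3B intensity was 136, 170.4 and 133 on the 3 DMSO arrays and 248, 289 and 237 on the 3 entinostat arrays at 24 h, and 179.5, 177 and 151 against 231, 223 and 242 at 48 h. ARID3B, a DNA-binding relative of ARID3A, rose by 0.82 and 0.46 (SE 0.11, adjusted p = 8.24e-05 and 0.00583), without overlap. ARID3A rose by 0.26 after 24 h (adjusted p = 0.0186), a call lost without the first DMSO array (0.21, adjusted p = 0.0833) or the third entinostat array of that time (0.24, adjusted p = 0.0634), and had 0.15 after 48 h (adjusted p = 0.167). ARID4B, the Sin3 subunit, had 0.14 and -0.04 (adjusted p = 0.241 and 0.757), with 1 dim probe set lower after 48 h at -0.17 (adjusted p = 0.0491). ARID5A, an RNA-binding protein that stabilizes inflammatory transcripts, had 0.05 and -0.15 (adjusted p = 0.758 and 0.249).

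Counted by probe set, 41 members were lower and 8 higher after 24 h, against 25.2% of all probe sets (12.4% lower and 12.8% higher), and 41 were lower and 7 higher after 48 h, against 26.1% (13.2% and 12.9%). Among them 33 were lower and 4 higher at both times, against 8.52% and 9.45% of all probe sets. Of the 35 genes, 24 had at least 2 probe sets.

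**Figure D4:**
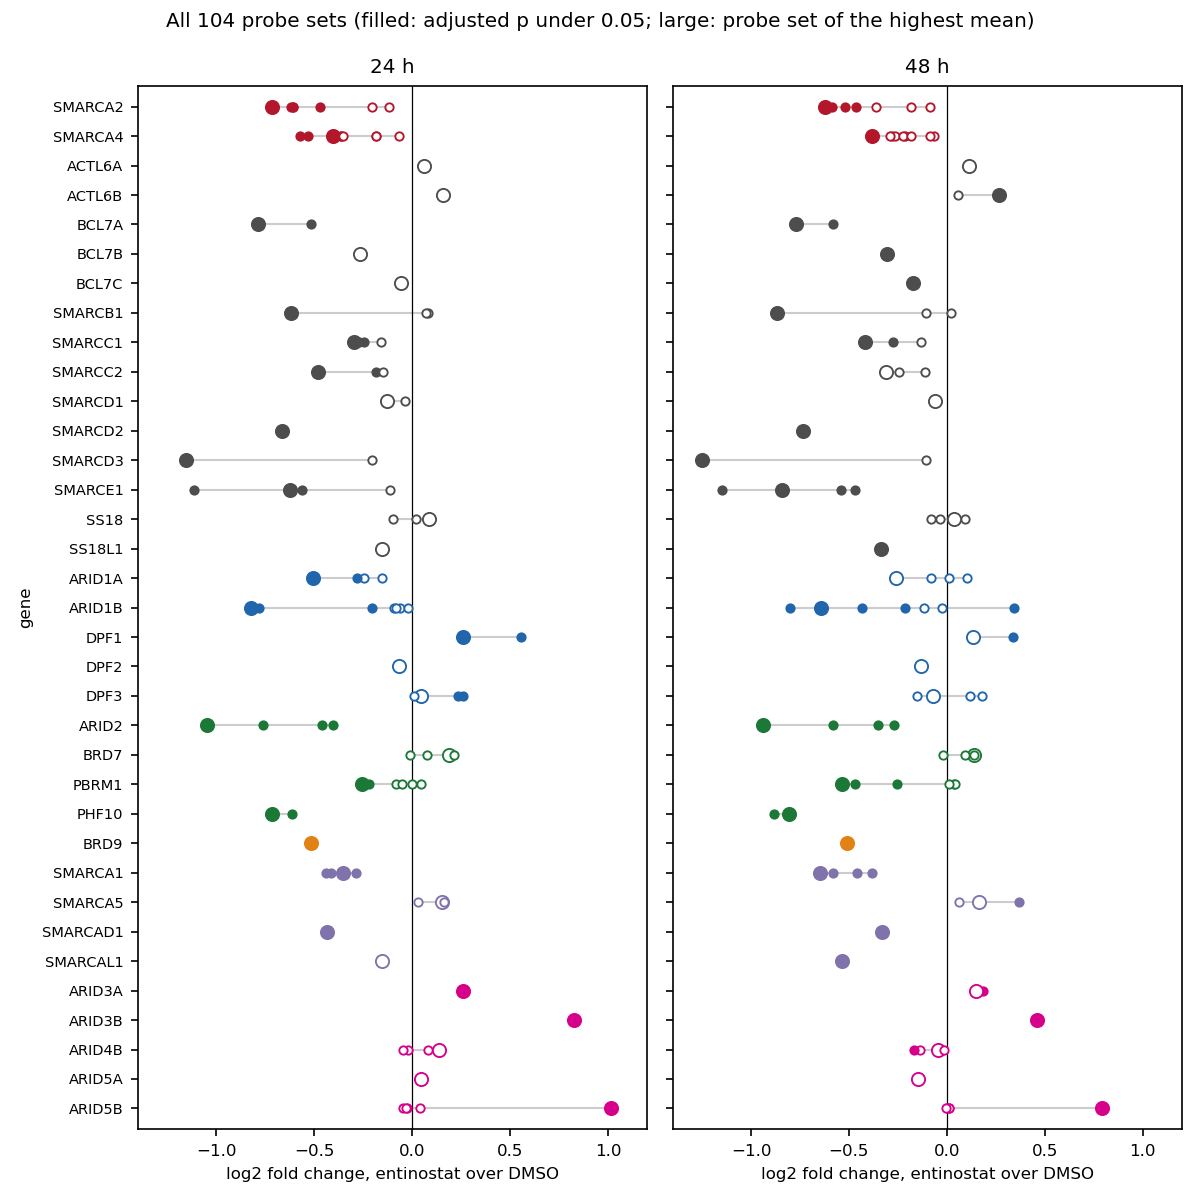
Log2 fold change (x axis) of all 104 member probe sets by gene (y axis) after 24 h and 48 h, with large symbols for the probe set that represents the gene, filled symbols for an adjusted p under 0.05 and colours by complex. Symbols of SMARCA2, SMARCA4, ARID2 and SMARCA1 lie on the same side of 0 for every probe set, and those of SMARCB1, PBRM1 and ARID5B do not.

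To ask whether genes that fill the same place in a complex or family changed unequally, the log2 difference between both genes of a pair was taken within each array and compared between treatments by an exact permutation test, two-sided and within time, over 12 pairs. Its smallest possible p was 0.005. SMARCD1 changed less than SMARCD3, by a difference of 1.11 on the log2 scale (exact p = 0.005, adjusted p = 0.00857). PHF10 relative to DPF1 had -0.96 and ARID5A relative to ARID5B -0.95. The latter was -1.47 with 30 subtracted from every intensity, and ARID5B lay below the array medians in DMSO. The difference was 0.67 for BRD7 and BRD9, 0.66 for SMARCA5 and SMARCA1, -0.44 for ARID3A and ARID3B and 0.35 for ARID1A and ARID1B, each with the same exact p and adjusted p. SS18 and SS18L1 differed by 0.31 (exact p = 0.015, adjusted p = 0.0225), which passed in 10 of the 12 fits to 11 arrays and missed (adjusted p = 0.0525) without the second (0.30) or the third (0.29) DMSO array of 48 h.

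Not past the test were SMARCA4 and SMARCA2 with 0.28 (exact p = 0.04, adjusted p = 0.0533), DPF2 and DPF3 with -0.09 (exact p = 0.085, adjusted p = 0.102), ACTL6A and ACTL6B with -0.13 (exact p = 0.385) and SMARCC1 and SMARCC2 with 0.04 (exact p = 0.74). SMARCA4 and SMARCA2 passed with 30 subtracted from every intensity (0.32, adjusted p = 0.04), with the probe sets of the strongest effect (0.21, adjusted p = 0.00667), and without the first entinostat array of 24 h (0.31, adjusted p = 0.04) or the second of 48 h (0.36, adjusted p = 0.015). DPF2 and DPF3 passed without the third DMSO array of 24 h (-0.12, adjusted p = 0.0375) or the first entinostat array of 48 h (-0.10, adjusted p = 0.0467). With the probe sets of the strongest effect their difference was -0.32 (adjusted p = 0.00667). Those probe sets were picked by the treatment effect in these same arrays, and the permutation did not repeat the choice. The adjusted p of 0.00667 is therefore biased low for both pairs and adds no support. ARID4A and ARID4B could not be compared, as ARID4A had no probe set. A difference within an array compares the changes of 2 probe sets and not the levels of 2 genes.

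**Figure D5:**
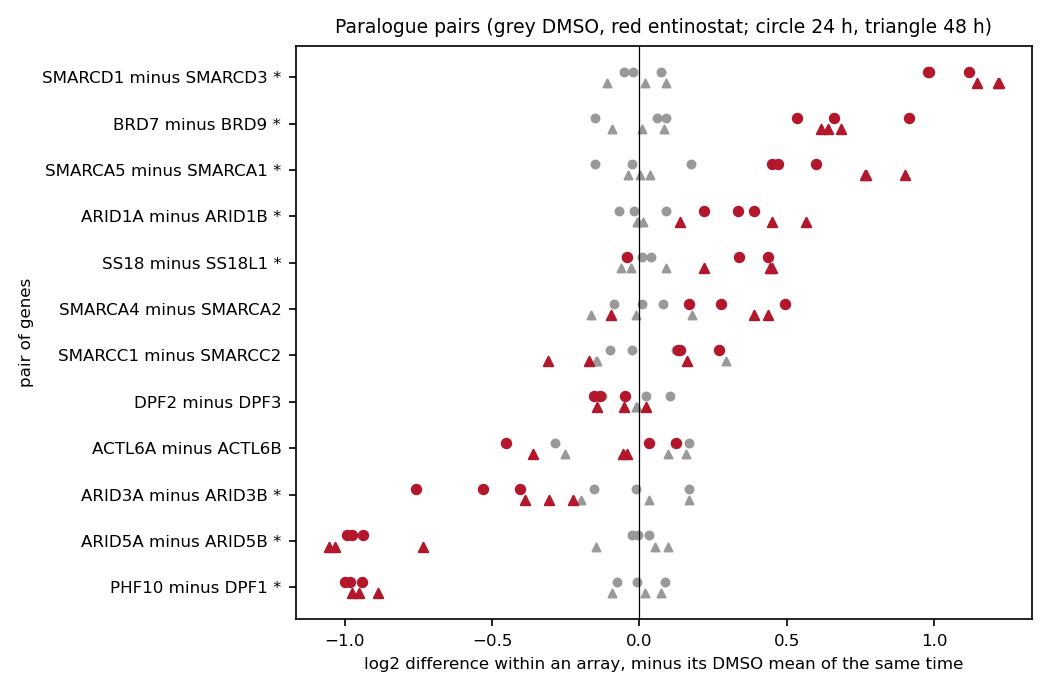
Log2 difference between both genes of a pair within an array, minus the DMSO mean of the same time (x axis), for 12 pairs (y axis). Grey is DMSO, red is entinostat, circles are 24 h and triangles 48 h, and an asterisk marks an adjusted p under 0.05. The red symbols of SMARCD1 and SMARCD3 lie near 1.11 and those of PHF10 and DPF1 near -0.96, while those of SMARCC1 and SMARCC2 fall on both sides of 0.

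Genes of related families were read beside the members. JARID2, an ARID protein that recruits Polycomb repressive complex 2, rose by 1.01 and 0.77 (adjusted p = 7.43e-07 and 6.53e-06), and KDM5B, an ARID-domain demethylase of histone H3, rose by 0.74 and 0.95. KDM5C fell, with -0.36 and -0.25, and KDM5A had -0.10 and -0.02 and did not pass. Of 11 partner genes of ISWI ATPases, 5 were lower and 1 higher after 24 h (54.5% called, against 33.2% of all genes). After 48 h 3 were lower and 1 higher (36.4%, against 34% of all genes). All 11 had a mean log2 of at least 6.5, and among all genes that bright 49.8% and 51.3% were called. BAZ1A (-0.92 and -1.07) and BAZ2B (-0.91 and -0.77) had the largest falls, and BAZ2A (0.19 and 0.25) was the rise.

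Of 17 CHD and NuRD genes, 9 were lower at each time, and 2 were higher after 24 h and 3 after 48 h. The shares called were 64.7% and 70.6%, against 33.2% and 34% of all genes. Lower were 52.9% at each time, against 15% and 16.6% of all genes. Each of these CHD and NuRD genes but CHD5 had a mean log2 of at least 6.5. Among all genes that bright, the shares called were 49.8% and 51.3%, and the shares lower were 23.5% and 26.5%. By the mean of both times, MTA1 (-0.93 and -1.07) and CHD1L (-0.70 and -0.74) had the largest falls and MBD2 (0.47 and 0.45) and GATAD2B (0.49 and 0.20) the largest rises. Of 21 genes of the INO80, SRCAP and EP400 remodellers, 4 were lower and 2 higher after 24 h. At 48 h 6 were lower and 1 higher. The shares called were 28.6% and 33.3%, against 33.2% and 34% of all genes. Lower were 19% and 28.6%, against 15% and 16.6%. All 21 had a mean log2 of at least 6.5. Among all genes that bright, 49.8% and 51.3% were called, and 23.5% and 26.5% were lower. INO80D (-0.63 and -0.62) and MCRS1 (-0.63 and -0.46) had the largest falls in this list, and DMAP1 (0.53 and 0.56) and ACTR5 (0.45 and 0.21, with an adjusted p of 0.127 after 48 h) the largest rises. Of 4 other SWI/SNF genes, SS18L2 rose at both times (0.45 and 0.35), and ACTB, BICRA and BICRAL did not pass.

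Replicate arrays correlated with those of their own group at 0.993 or above. The 3′ control probe set of GAPDH minus its 5′ one, on the log2 scale, measures RNA integrity, and it did not separate the treatments at either time (exact permutation test, p = 0.6 and 0.3, where 3 against 3 arrays cannot go below 0.1). For ACTB this difference was 0.07 lower with entinostat after 48 h without overlap (exact p = 0.1), and its part in the member results was not tested. Of 10 markers of other cell types, 8 or 9 had group means below an intensity of 100, and their summed level was 724 to 806 in DMSO and 771 to 789.9 with entinostat after 24 h, and 767 to 781 and 743 to 754 after 48 h. The 48 h sums did not overlap, and 1 of the 10, the oligodendrocyte marker MBP, was lower after 48 h (-0.44, adjusted p = 0.00045), with its part in the member results not tested. Of 8 markers of group 3 medulloblastoma, 1 or 2 had means below 100. Their summed level was 24498 to 27478 in DMSO and 20581 to 22468 with entinostat after 24 h, and 27336 to 28924 and 25511 to 25999 after 48 h. The sums did not overlap at either time, but they add unlike intensities, and 3 of the 8 markers were lower at each time, among them GABRA5 (-1.78 and -2.12) and IMPG2 (-2.02 and -1.52). MYC, the brightest of the 8, had 0.04 after 24 h (adjusted p = 0.6) and was higher after 48 h (0.17, adjusted p = 0.0163). The part of these markers in the member results was not tested.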

How the data were processed

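HD-MB03 RNA from 4 groups of 3 biological replicates was measured on 12 arrays. The authors state GCRMA normalization (version not given in the sources used here) and a log2 step, but the deposited intensities are linear, with a lowest value of 36.7, so log2 was taken here and a background level remains. After 62 control probe sets were left out, limma 3.58.1 in R 4.3.3 was fitted to 54613 probe sets with 1 coefficient per group, with an additive model for both times and contrasts for the interaction and for time in DMSO. P-values were adjusted by Benjamini-Hochberg across these probe sets, with a threshold of 0.05. Of the probe sets, 41091 carry 1 gene symbol, 1801 several and 11721 none, by the platform annotation. A gene was read from its probe set of the highest mean over all arrays, a choice that does not use the treatment effect. Members and gene lists were chosen with earlier results of these data known. Per-array values are given for members past the test at both times in the same direction with an absolute log2 fold change of at least 0.5 at either time and for genes of 5 paralogue pairs, and related lists by counts and the largest rises and falls. Arrays with the same replicate number were treated as unpaired. Alternatives tried were leaving out each array, a minimum mean log2 of 6.5, quantile normalization, subtraction of 30 before log2, a trended robust prior, one fit for each time, a replicate block, omission of probe sets named _x_at or _s_at, an adjusted p under 0.01 and the probe set of the strongest effect. The procedure was also run on simulated data with independent noise and few changed probe sets. The real arrays differ in both respects, and no result here rests on that run. Precision is limited by the number of arrays.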

Additional observations from a re-analysis of the deposited data

How the results depend on the processing

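Of the single-gene values recomputed under the alternatives, 1312 kept their side of the threshold, 47 lost a pass, 19 gained one and 2 reversed. Reversed means that the sign changed and that the value passed the test in the results above or under the alternative. Both reversed values had passed in the results above. Changes of sign without a pass on either side are among the 1312. Examples are ACTL6A at 24 h (0.058 above, lowest -0.083) and DPF3 at 48 h (-0.073 above, highest 0.177). Leaving out each array in turn gave 20 to 22 member genes past the test at 24 h and 19 to 21 at 48 h, 40 to 51 and 40 to 46 probe sets, 57 to 62 over both times and 0 past the interaction throughout, and 7 to 9 paralogue pairs.

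The largest shifts came from omitting probe sets named _x_at or _s_at, which leaves 50 member probe sets and 28 genes. Past the test were then 25 member probe sets after 24 h (7 higher and 18 lower), 22 after 48 h and 31 with both times together. They gave 13 genes at each time, and 72% of the member probe sets called at 24 h were lower, against 83.7%. The share of all probe sets or genes that passed was not counted under this or any other alternative. The counts of this section, with single arrays left out as well, therefore have no background beside them. They show how far the member counts moved and not how the members stood against all genes. PBRM1 then had 0.011 at 48 h (adjusted p = 0.96) and SMARCB1 0.080 at 24 h (adjusted p = 0.572), each read from another, dimmer probe set. The calls of PBRM1 (-0.05) and SMARCC2 (-0.15) at 24 h, of SMARCB1 (-0.11) and SMARCA2 (-0.36) at 48 h and of SMARCA4 at both times (-0.19 and -0.09) were lost too. So was that of BCL7B at 48 h, read from the same probe set as above (-0.30, adjusted p = 0.0521).

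Restricted to probe sets with a mean log2 of at least 6.5, 1 probe set passed the interaction, of SMARCA1, with an effect that was more negative at 48 h (-0.29, adjusted p = 0.0464). At an adjusted p under 0.01, 34 probe sets remained past at each time and 49 over both, with 19 genes at 24 h and 17 at 48 h. The probe set of the strongest effect, a choice that uses the treatment effect itself, gave 22 and 25 genes. Samples with the same replicate number had correlated deviations of -0.0658 to 0.296, over 0.1 in 8 of 18 pairs. The replicate block gave 48 probe sets after 24 h, 44 after 48 h and 61 over both times, and 21 genes at each time, losing SS18L1 and BCL7C and adding SMARCC2 at 48 h. The number of arrays and, for dim probe sets, the background level left in the values limit small changes.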
